A study of Mus musculus with 12 samples.

Results

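The genes described here are the 10 genes of MHC class II antigen presentation that were chosen by name: H2-Aa, H2-Ab1, H2-Eb1, Cd74, Ciita, H2-DMa, H2-DMb1, H2-DMb2, H2-Oa and H2-Ob. All 10 were found among the 47729 genes of the count tables, and all 10 were among the 19154 genes that passed the filter on low counts. They were measured by RNA-seq in 12 libraries of adipose tissue from wild type male C57BL/6J mice, aged 6 to 10 weeks and kept on a low-fat standard rodent diet. There were 4 groups of 3 libraries: brown adipose tissue from between the shoulder blades (interscapular, BAT), and white adipose tissue of the epididymal (EWAT), inguinal (IWAT) and retroperitoneal (RWAT) depots. Surgical denervation had been done in all 4 groups, and no innervated tissue was analysed here, so depot is the only factor that can be compared. The labels do not state how long after surgery the tissue was taken, or whether each of the 3 libraries per depot came from its own animal. Each p-value hence speaks only of the spread among these libraries, which may be technical.

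MHC class II molecules display peptides from engulfed proteins to CD4 T cells, mainly on macrophages, dendritic cells and B cells. An α and a β chain pair in the endoplasmic reticulum around the invariant chain, are carried to the endosome, and exchange the last fragment of the invariant chain for a peptide with the help of H2-DM, which H2-O restrains. Transcription of these genes depends on the coactivator CIITA, which interferon gamma induces in many cells and which binds to no DNA itself but to a complex assembled on the X and Y boxes of their promoters. In adipose tissue, macrophages and dendritic cells are the best known bearers of class II, and adipocytes have also been described to carry it.

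H2-Aa, H2-Ab1, H2-Eb1, both H2-DM β genes, H2-DMa and both H2-O genes, 8 members in all, lie within 224.3 kb of chromosome 17 (34092340 to 34316674 on GRCm38, GENCODE M21), and Ciita lies on chromosome 16 (10480059 to 10528418). Cd74 is on another chromosome. RefSeq promoter windows, which run from 250 bases before to 50 after a start site on GRCm38.p6, were found for 7 of the 10 members, with 8 windows because H2-DMa has 2. The core of the Y box, TGATTGG on either strand, was found in 6 of these members (H2-Aa, H2-Eb1, H2-DMb1, H2-DMb2, H2-Oa and H2-Ob), and in 7.82% of 32851 windows of all genes. In the same 6 members it followed the letters AAC, taken as a part of the X box, after 23 to 26 other bases. Of all windows, 0.46% held this arrangement on either strand. Neither H2-DMa window held it. The motif and its spacing were chosen after these promoters had been read, so the counts are a description of them. The 4 windows below, of 90 bases each, are shown because they carry this shared arrangement in 1 gene for an α chain, 1 for a β chain, 1 for H2-DM and 1 for H2-O. Capitals mark AAC and the Y box core.
H2-Aa, chr17:34287852-34287941, minus strand: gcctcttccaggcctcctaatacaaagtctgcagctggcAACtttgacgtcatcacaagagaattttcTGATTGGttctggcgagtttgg
H2-Eb1, chr17:34305738-34305827, plus strand: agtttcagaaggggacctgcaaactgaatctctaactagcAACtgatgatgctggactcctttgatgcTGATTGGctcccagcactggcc
H2-DMb2, chr17:34145089-34145178, plus strand: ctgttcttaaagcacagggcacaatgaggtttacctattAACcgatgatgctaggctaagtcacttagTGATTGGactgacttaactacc
H2-Ob, chr17:34238778-34238867, plus strand: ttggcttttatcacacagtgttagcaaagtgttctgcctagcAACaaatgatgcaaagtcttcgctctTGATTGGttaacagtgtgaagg
The gap between the capitals was 26 bases in H2-Aa and H2-DMb2, 25 in H2-Eb1 and 23 in H2-Ob. The Y box core ended 44 bases before the start site in H2-Aa, 55 before it in H2-Eb1, 86 before it in H2-DMb2 and 53 before it in H2-Ob. The match of letters does not show that a factor was bound there in these tissues.

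The libraries held 15699912 to 25633413 counts, and the mitochondrial genome took 3.28% to 19.0% of them. Libraries of a depot differed widely in composition. Summed levels of 8 adipocyte markers ran from 8467 to 20409 CPM (counts scaled to library size and TMM factor) in BAT, 3637 to 6385 in EWAT, 6167 to 24137 in IWAT and 2663 to 18460 in RWAT. The 6 skeletal muscle markers summed to 1810 to 15886 CPM in BAT and reached 14122 CPM in the third RWAT library, whereas the other 8 libraries held 8.88 to 65.8 CPM. Brown adipocyte markers, 6 genes with Ucp1 among them, summed to 131 to 4296 CPM in BAT and to 3.06 to 296 CPM in the white depots, so that the lowest BAT library lay below the highest IWAT library. The 6 mesothelial markers summed to 40.7 to 195 CPM in EWAT and RWAT and to at most 1.94 CPM in BAT and IWAT.

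The genes of the α and β chains stood highest in EWAT by mean and lowest in RWAT, with wide spreads within BAT and IWAT. H2-Aa, the α chain of I-A, held, in replicates 1 to 3, 94.0, 169 and 212 CPM in BAT, 186, 255 and 300.02 CPM in EWAT, 136, 148 and 287 CPM in IWAT, and 99.0, 100.1 and 127 CPM in RWAT. The 3 EWAT libraries lay above the 3 RWAT libraries, as did the 3 IWAT libraries, while IWAT overlapped EWAT and BAT overlapped the other depots. H2-Ab1, the β chain that pairs with it, held 62.8, 117 and 148 CPM in BAT, 115, 167 and 197 CPM in EWAT, 73.5, 99.0 and 174 CPM in IWAT, and 57.7, 65.4 and 84.8 CPM in RWAT. H2-Eb1, the β chain of I-E, held 67.6, 124 and 147 CPM in BAT, 115, 167 and 187 CPM in EWAT, 80.6, 99.4 and 177 CPM in IWAT, and 64.8, 56.2 and 87.2 CPM in RWAT. In all 3 genes replicate 3 was the highest of its depot, and IWAT replicate 3 lay within the EWAT range. The α chain gene of I-E, H2-Ea-ps, annotated as a polymorphic pseudogene, had 0 counts in all 12 libraries, which allows up to 3 counts in each by counting error alone. H2-Eb1 thus reached levels like those of H2-Ab1 in libraries without a read of the gene for its partner chain. The second I-E β locus, H2-Eb2, had 0 to 20 counts per library and no more than 0.978 CPM.

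Cd74, which encodes the invariant chain, was the most abundant member. Per unit of transcript length, its median over the 12 libraries was 305 TPM (a level corrected for transcript length), against 182 for H2-Aa, 130 for H2-Ab1 and 119 for H2-Eb1. It held 184, 331 and 397 CPM in BAT, 342, 487 and 554 CPM in EWAT, 227, 300 and 565 CPM in IWAT, and 195, 175 and 258 CPM in RWAT. The highest library was IWAT replicate 3 and the lowest RWAT replicate 2. Over all libraries Cd74 varied 3.23-fold in TMM-scaled CPM and 8.34-fold in TPM. TPM takes no account of the composition of a library, and the TMM factors ran from 0.615 in BAT replicate 1 to 1.23 in EWAT replicate 3.

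Ciita, the gene of the coactivator, had a median of 3.96 TPM, far below Cd74 and the chain genes, below the 3 H2-DM genes (6.92 to 21.0 TPM) and above H2-Ob (1.68 TPM) and H2-Oa (0.60 TPM). It held 4.25, 13.7 and 21.1 CPM in BAT, 17.9, 27.3 and 33.9 CPM in EWAT, 9.17, 14.8 and 31.4 CPM in IWAT, and 8.10, 10.5 and 16.5 CPM in RWAT. Its libraries spanned 7.98-fold in CPM, from BAT replicate 1 to EWAT replicate 3, more than those of Cd74 or of the 3 chains, which spanned 3.19-fold to 3.41-fold. BAT replicate 1, with 54 Ciita counts, was the lowest by a wide margin, and the 3 RWAT libraries lay below the 3 EWAT libraries.

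The genes of H2-DM, the peptide exchange factor, stood between these levels. H2-DMa, the α chain, held 8.11, 11 and 24.4 CPM in BAT, 20.2, 29.3 and 33.2 CPM in EWAT, 10.4, 16.2 and 28.0 CPM in IWAT, and 7.21, 12.5 and 15.4 CPM in RWAT. H2-DMb1, the main β chain by level, held 8.34, 12 and 25.9 CPM in BAT, 21.1, 26.9 and 34.6 CPM in EWAT, 12.3, 14.2 and 33.2 CPM in IWAT, and 9.17, 15 and 16.3 CPM in RWAT. Both repeated the order of the α and β chain genes, with EWAT above RWAT and IWAT replicate 3 among the EWAT libraries. H2-DMb2, the second β chain gene, was lower and flatter, at 4.09, 6.41 and 6.70 CPM in BAT, 13.1, 7.67 and 8.65 CPM in EWAT, 7.27, 7.42 and 9.19 CPM in IWAT, and 6.07, 5.76 and 7.56 CPM in RWAT. Its highest library was EWAT replicate 1, the library in which each of the other 9 members was lowest within EWAT. H2-DMb1 and H2-DMb2 are near-identical copies that share reads. The posterior SD of the deposited count reached 2.20% of the count for H2-DMb1 and 8.98% for H2-DMb2, against less than 0.6% for every other member with a count above 0, so their split is the least certain of these values.

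The genes of H2-O, the inhibitor of H2-DM known best from B cells, were scarce. H2-Ob, the β chain, held 0.630, 2.42 and 2.01 CPM in BAT, 2.48, 3.21 and 3.10 CPM in EWAT, 4.53, 1.55 and 2.04 CPM in IWAT, and 1.25, 1.44 and 1.69 CPM in RWAT. Its highest library was IWAT replicate 1, where no other member had its highest value. That library also held the most Ms4a1 (CD20) and Bank1, both B cell genes, with 11.2 CPM of Ms4a1 and 11.5 CPM of Bank1 against at most 5.95 CPM and 4.90 CPM in the other 11 libraries. H2-Oa, the α chain, had 0, 3 and 12 counts in BAT, 9, 26 and 32 in EWAT, 9, 3 and 16 in IWAT, and 3, 13 and 8 in RWAT. Of these 12 counts, 4 are no larger than the 3 counts that a true count of 0 allows, so no fold between depots is read from H2-Oa in levels.

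**Figure D1:**
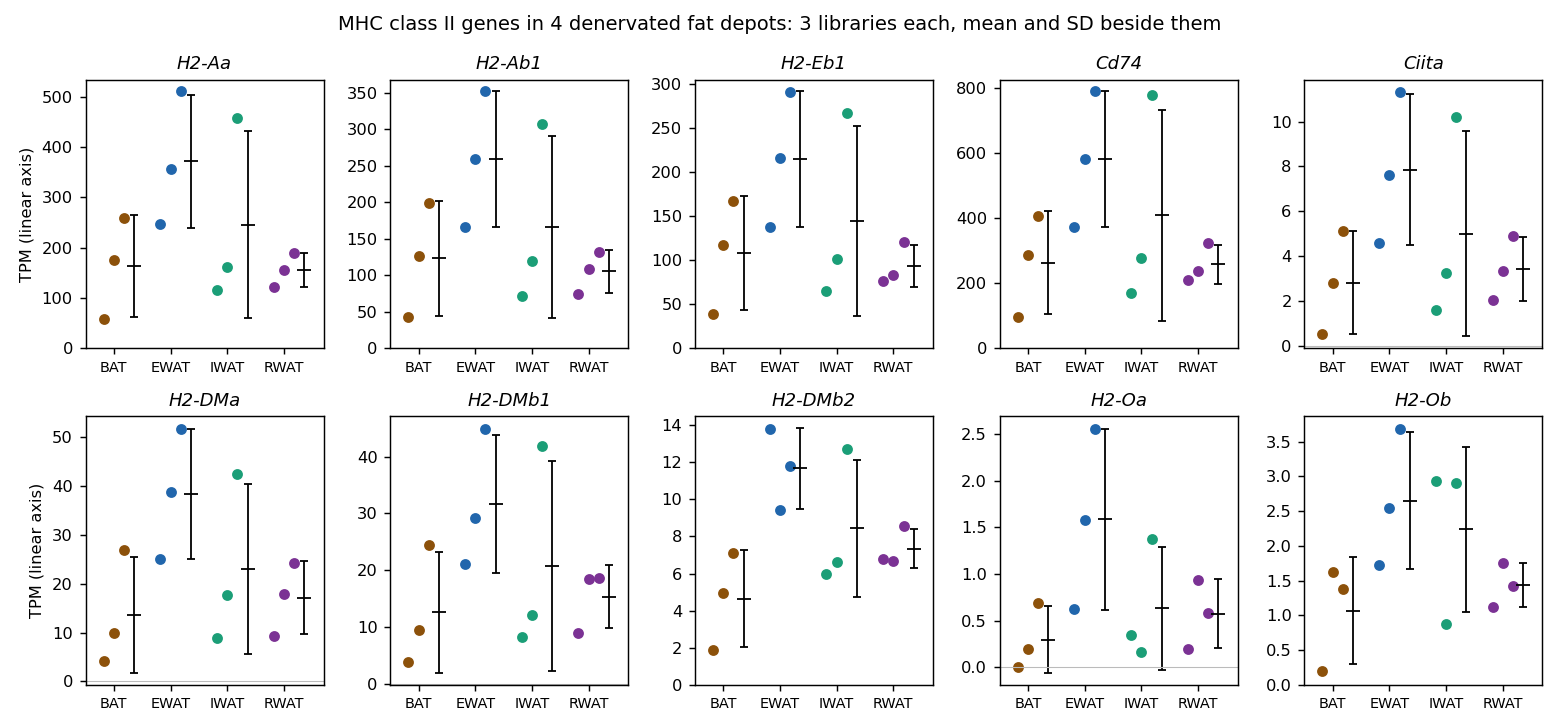
Each panel plots 1 gene in TPM on a linear axis, with 1 point per library (3 each for BAT, EWAT, IWAT and RWAT, replicates 1 to 3 from left to right) and the mean with its SD to the right of the points. Cd74 reached 789 TPM in EWAT replicate 3 and 778 in IWAT replicate 3 against 210 to 325 in RWAT, and H2-Oa stayed at or below 2.56 TPM in all 12 libraries.

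By mean CPM the order was EWAT, IWAT, BAT and RWAT for 8 members and EWAT, IWAT, RWAT and BAT for H2-DMb2 and H2-Oa. Neighbours in this order overlapped in their libraries for all 10 members. By the authors' TPM the first 2 places were the same for all 10, and BAT rather than RWAT was lowest for 6 (Ciita, H2-DMa, H2-DMb1, H2-DMb2, H2-Oa and H2-Ob). Mean Cd74 levels were 461 ± 108 CPM in EWAT (SD, n = 3), 364 ± 178 in IWAT, 304 ± 109 in BAT and 209 ± 43.3 in RWAT.

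Within a library, Cd74 and the genes of the α and β chains kept close proportions to each other, with a narrower range than Cd74 had to genes of the cells that may carry it. The TPM ratio of Cd74 to H2-Aa ran from 1.46 to 1.73 over all 12 libraries, a 1.19-fold range, while both genes varied more than 8-fold in TPM. H2-Ab1 to H2-Aa ran from 0.613 to 0.768 and H2-Eb1 to H2-Aa from 0.530 to 0.673. H2-DMa to H2-DMb1, the 2 chains of 1 dimer, ran from 0.969 to 1.46. The looser pairs were H2-DMb2 to H2-DMb1, from 0.263 to 0.751, Ciita to H2-Aa, with a 2.88-fold range, and H2-Ob to H2-Aa, with a 7.36-fold range. The lowest ratio for both Ciita and H2-Ob was that of BAT replicate 1, the library with the fewest counts of either. Against single genes of other cells, Cd74 varied 10.8-fold relative to Adgre1 (the macrophage surface protein F4/80), 3.82-fold relative to Csf1r (a growth factor receptor of macrophages), and 8.96-fold relative to Lyz2 (a lysozyme of macrophages). Of the dendritic cell genes, it varied 2.06-fold relative to Flt3 (a growth factor receptor) and 4.74-fold relative to Clec9a (a receptor for dead cells). It varied 9.17-fold relative to Ms4a1 and 4.18-fold relative to B2m, the light chain of MHC class I. RWAT replicate 2 had the lowest ratio of Cd74 to Adgre1, Csf1r, Lyz2 and Flt3, and BAT replicate 2 the highest of all 4, whereas the ratios to Clec9a, Ms4a1 and B2m were lowest in IWAT replicate 1. Ratios within a library share its reads, and they are given as a description without a test.

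**Figure D2:**
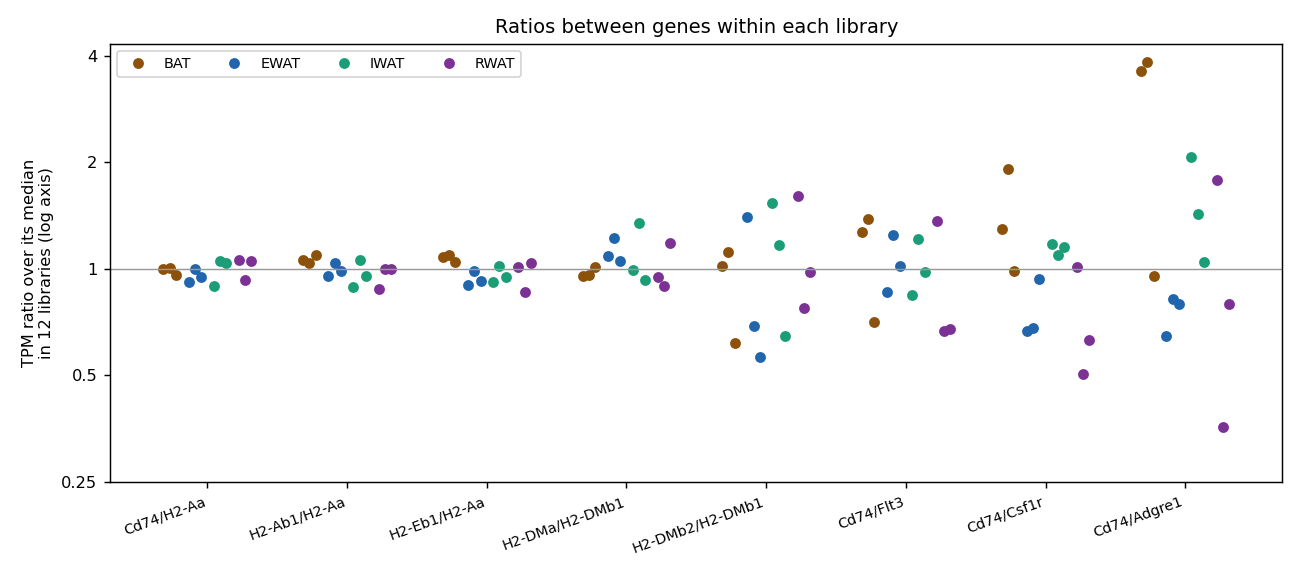
Ratios of TPM between pairs of genes in each of 12 libraries, divided by their median and drawn on a log2-spaced axis, with colours for the depots. The pairs Cd74/H2-Aa, H2-Ab1/H2-Aa and H2-Eb1/H2-Aa lie within a narrow band, whereas Cd74/Adgre1 ranges from 1.31 in RWAT replicate 2 to 14.1 in BAT replicate 2 before division.

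The comparison of epididymal with retroperitoneal fat, both intra-abdominal depots, gave the largest differences of the members. All 10 had higher fitted levels in EWAT, with log2 fold changes from 0.60 for H2-DMb2 to 1.38 for H2-Oa and a median of 1.17, against a median of -0.04 over all genes tested. The value of H2-Oa rests on few counts, at most 32 in a library, and its 95% interval ran from -0.52 to 3.28. In 9 of the 10 (not H2-Oa), the 3 EWAT libraries lay above the 3 RWAT libraries, an arrangement that 8.21% of all genes tested showed. None of the 10 passed the test, edgeR's quasi-likelihood test with Benjamini-Hochberg adjustment, at an adjusted p under 0.05, in a comparison in which 0.0418% of all genes passed (8 of 19154). At an unadjusted p under 0.05 there were 5 of the 10 members (H2-Aa, H2-Ab1, H2-Eb1, Cd74 and H2-DMa) and 1732 genes in all, or 9.04%. H2-Aa had a log2 fold change of 1.18 (SE 0.36, 95% interval 0.38 to 1.98, edgeR adjusted p = 0.308), and Cd74 one of 1.14 (SE 0.39, 0.28 to 2.00, edgeR adjusted p = 0.364). H2-Ab1 stood at 1.20 (SE 0.38), H2-Eb1 at 1.17 (SE 0.37), H2-DMa at 1.23 (SE 0.48), Ciita at 1.17 (SE 0.58), H2-DMb1 at 1.03 (SE 0.48) and H2-Ob at 1.00 (SE 0.51). The intervals of the 3 α and β chain genes, Cd74 and H2-DMa lay above 0, and those of the other 5 members included 0. DESeq2, the other count model tried, called H2-Aa (log2 fold change 1.20, DESeq2 adjusted p = 0.0457) and no other member, where it called 546 genes (2.86%), and limma-voom called no member (0.0418% of genes). All 10 fold changes stayed above 0 in each of the 20 alternatives, and that of H2-Aa ran from 1.02 to 1.34, with adjusted p from 0.0457 to 0.843. Measured in TPM, 7 members had EWAT libraries all above RWAT, against 5.1% of genes, and Ciita, H2-Oa and H2-Ob overlapped.

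**Figure D3:**
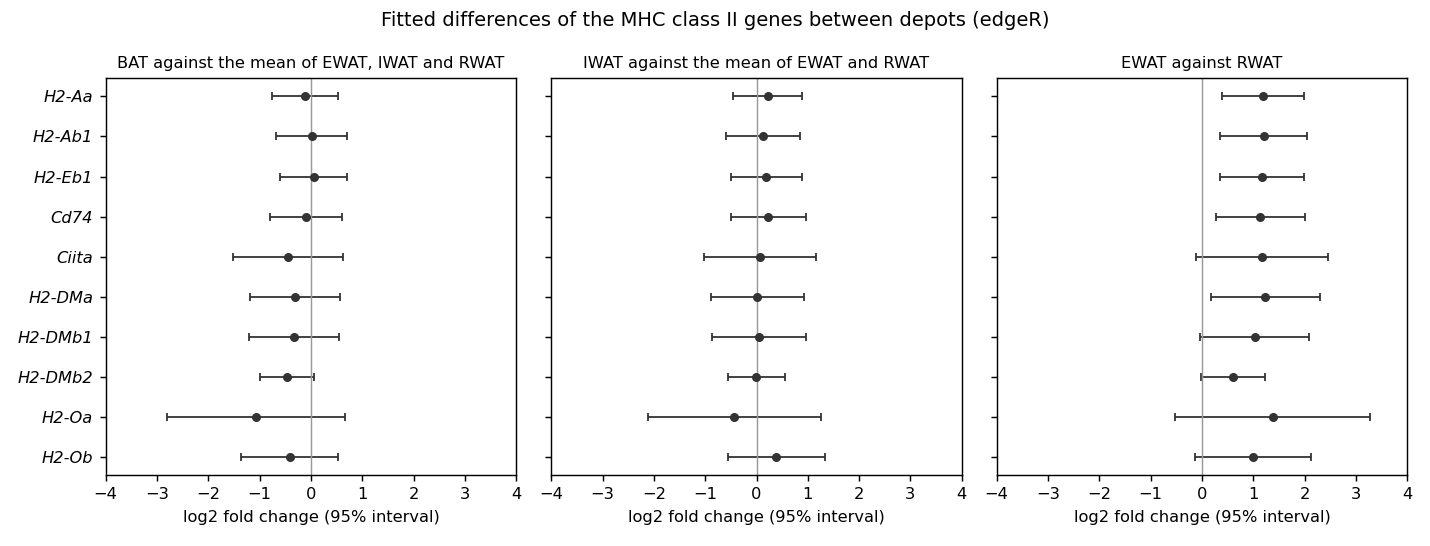
Log2 fold changes of the 10 members (points) with 95% intervals (bars) from the edgeR fit, with a panel each for BAT minus white fat, IWAT minus the intra-abdominal depots and EWAT minus RWAT. The points lie between 0.60 and 1.38 in the panel of EWAT against RWAT and between -0.43 and 0.39 in the panel of IWAT.

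Across all 4 depots at once, no member passed the edgeR test of any difference (adjusted p from 0.282 to 0.496), where 0.512% of all genes did. Unadjusted, H2-Aa alone of the members fell under 0.05, against 3283 genes (17.1%) in all, and neither DESeq2 nor limma-voom called a member, where they called 11.3% and 0.12% of genes.

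Between brown and white fat the differences of the members were small beside their spread. Their median log2 fold change, BAT over the average of EWAT, IWAT and RWAT, was -0.32, with 8 members below 0 and H2-Ab1 (0.01) and H2-Eb1 (0.05) above it; the median of all genes was -0.07. None was called (edgeR adjusted p from 0.307 to 0.987), in a comparison where 0.0992% of all genes were, and none had an unadjusted p under 0.05, as 18.1% of genes did. DESeq2 and limma-voom called none either, where 4.97% and 0.0157% of genes were called. H2-DMb2 came closest, at -0.47 (SE 0.24, 95% interval -0.99 to 0.05). The interval of H2-Aa, -0.77 to 0.53, does not reach a 2-fold difference in either direction, and neither does that of Cd74, -0.81 to 0.59. The sign of the 3 chain genes and Cd74 turned in some of the 20 alternatives, and Ciita, the 3 H2-DM and both H2-O genes stayed below 0 in every one, uncalled. Those values leaned on BAT replicate 1: without it Ciita stood at -0.03, H2-DMa at -0.02, H2-DMb1 at -0.04, H2-Ob at -0.03, H2-DMb2 at -0.28 and H2-Oa at -0.56. Without BAT replicate 3 Ciita, H2-DMa and H2-DMb1 stood at -0.91, -0.84 and -0.86. Without BAT replicate 1 the fold changes of H2-Aa and Cd74 turned to 0.15 and 0.16, and without IWAT replicate 3 to 0.02 and 0.05. Scaled by library size alone, where the median of all genes moved to -0.46, all 10 members lay below 0, H2-Ab1 at -0.35 and H2-Eb1 at -0.31.

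Between inguinal fat and the 2 intra-abdominal depots the median of the members was 0.10, with 8 above 0 and H2-DMb2 (-0.00060) and H2-Oa (-0.43) below it. The median of all genes was -0.05. None was called (edgeR adjusted p from 0.695 to 1.0), where 0.141% of all genes were, and none had an unadjusted p under 0.05, as 11.5% of genes did. DESeq2 and limma-voom called none, against 1.91% and 0.0835% of genes. These small values rested on IWAT replicate 3. Without it, H2-Aa went from 0.22 to -0.20, Cd74 from 0.23 to -0.23, Ciita from 0.07 to -0.55 and H2-DMb1 from 0.05 to -0.53. H2-Ob, the largest value at 0.39 (SE 0.43), rested on IWAT replicate 1, and stood at -0.20 without it.

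Other genes of the pathway, 48 tested genes in 8 lists, gave no call by edgeR, fitted without replicate numbers, in any of the 4 comparisons. At an unadjusted p under 0.05 there were 3 of the 48 across the depots, 4 for BAT against white, 6 for IWAT and 3 for EWAT against RWAT. The shares of all genes tested were 17.1%, 18.1%, 11.5% and 9.04% in the same order. DESeq2 called 3, 2, 0 and 0 of the 48, against 11.3%, 4.97%, 1.91% and 2.86% of all genes, and limma-voom called none. The 3 were Lag3, Ctsl and Tap2 across the depots, of which Lag3 and Ctsl also made up the 2 for BAT against white; they are named for these calls, after their values were seen. Lag3, a T cell receptor that binds class II, averaged 7.07 ± 3.62 CPM in BAT, 4.54 ± 2.04 in IWAT, 1.89 ± 1.51 in RWAT and 1.46 ± 0.377 in EWAT (SD, n = 3). Between BAT and the white depots it differed by a log2 fold change of 1.60 (SE 0.46, edgeR adjusted p = 0.145), and DESeq2 gave 1.66 (DESeq2 adjusted p = 0.0361).

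The complex on the X and Y boxes of the class II promoters was represented by 7 genes. These were the RFX subunits Rfx5, Rfxap and Rfxank, the NF-Y subunits and Creb1. They gave no call either, and no difference from the members was tested. Their summed level was 142 to 174 CPM in BAT, 149 to 183 in EWAT, 151 to 181 in IWAT and 147 to 195 in RWAT, and their median log2 fold change in EWAT against RWAT was -0.02, with 3 of 7 above 0. Single genes varied more than the sum: Nfya, an NF-Y subunit, ran from 17.9 to 50.2 CPM over the 12 libraries and Nfyc, another, from 17.3 to 40.9 CPM, against 7.34 to 10.6 CPM for Rfxap. Creb1, the most abundant, stood at -0.31 (SE 0.20). In the interferon gamma pathway, 8 genes tested, the median in EWAT against RWAT was 0.02 with 5 of 8 above 0, from -0.12 to 1.19. Jak1, the kinase bound to the receptor, stood at 0.00 (SE 0.18). The top of that range was Irf8, a transcription factor of myeloid cells and B cells, which is also high in dendritic cells, with 86.3 ± 19.6 CPM in EWAT and 37.9 ± 19.6 in RWAT (SD, n = 3; edgeR adjusted p = 0.707).

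Lysosomal processing genes are those of a thiol reductase and of the proteases that cut the invariant chain and antigens. They were higher in EWAT than RWAT by fold change in 9 of 9, with a median of 0.84 and none called. Their summed level was 8708 to 14780 CPM in EWAT and 3742 to 8553 CPM in RWAT. Ctsb, the most abundant, stood at 0.85 (SE 0.38, edgeR adjusted p = 0.548). Ctss, the protease of the last invariant chain step, held 651, 978 and 1345 CPM in EWAT and 138, 558 and 526 CPM in RWAT. Its EWAT libraries thus all lay above those of RWAT, as in 8.21% of all genes tested. The same held for Ctsb, Ctsd, Ctsz and Ctse, whereas the libraries of Ctsl, Ctsh, Lgmn and Ifi30 overlapped. All 9 were below 0 in IWAT against the intra-abdominal depots (median -0.52) and in BAT against white (median -0.53), with none called by edgeR; DESeq2 called Ctsl in BAT, at -1.42 (DESeq2 adjusted p = 0.0455). Among the 3 genes of class II turnover, March8, a ubiquitin ligase, stood at 0.00 (SE 0.13) in EWAT against RWAT. Cd83, a dendritic cell protein that stabilises surface class II, held 8.44, 11 and 15.1 CPM in EWAT and 3.04, 5.86 and 6.25 CPM in RWAT (log2 fold change 1.19, SE 0.45, edgeR adjusted p = 0.427).

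The 5 costimulation and checkpoint ligands tested had a median of 0.33 in EWAT against RWAT, 4 of 5 above 0, and Cd274 (PD-L1) stood at 0.77 (SE 0.40). MHC class I presentation, the path for peptides made inside the cell, had a smaller median than the members (1.17) in EWAT against RWAT. In IWAT against the intra-abdominal depots its median was larger than that of the members (0.10). Its 13 genes had a median of 0.15 in EWAT against RWAT with 10 of 13 above 0, and 0.38 in IWAT against the intra-abdominal depots with 12 of 13 above 0. H2-D1, its most abundant gene, stood at 0.31 (SE 0.26) in EWAT against RWAT and at 0.55 (SE 0.22, edgeR adjusted p = 0.420) in IWAT. B2m averaged 765 ± 22.3 CPM in EWAT and 771 ± 259 in RWAT (SD, n = 3), with a log2 fold change of -0.01 (SE 0.28). Whether class II differed from class I between depots was not tested.

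In bulk tissue, fewer cells of a type and less RNA per cell cannot be told apart. In EWAT against RWAT, most markers of the cells that carry class II had fold changes above 0, and so had most T cell markers. The 12 macrophage markers summed to 5757 to 7857 CPM in EWAT and 1910 to 5398 CPM in RWAT, with 11 of 12 fold changes above 0 and a median of 0.77. The 10 dendritic cell markers summed to 162 to 189 CPM in EWAT and 129.8 to 133 CPM in RWAT. Their fold changes were above 0 in 8 of 10, with a median of 0.43. Clec10a alone took the largest part of the dendritic cell sum, with a mean of 98.8 CPM in EWAT and 82.1 CPM in RWAT. The 12 B cell markers summed to 28.2 to 43.8 CPM in EWAT and 13.1 to 21.4 CPM in RWAT, with 9 of 11 tested above 0 and a median of 1.26. The 10 T cell markers summed to 31.4 to 34.7 CPM in EWAT and 23.8 to 68.1 CPM in RWAT, with 8 of 10 above 0 and a median of 1.07. Thy1, a surface protein of T cells and of stromal cells, took the largest part of that sum and had the lowest fold change of the list (-0.99, SE 0.66). No marker of these 4 lists passed the edgeR test in that comparison, and DESeq2 and limma-voom called none. An unadjusted p under 0.05 was found for 3 B cell and 3 T cell markers, and for no macrophage or dendritic cell marker. Of all genes tested, 9.04% had such a p. Within the 4 lists, Pax5 (B cells) was at 0 in RWAT replicate 1 and Cd5 (T cells) at 0 in BAT replicate 2, and no other marker was at 0 in any library. The part of these cells in the difference was not tested.

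**Figure D4:**
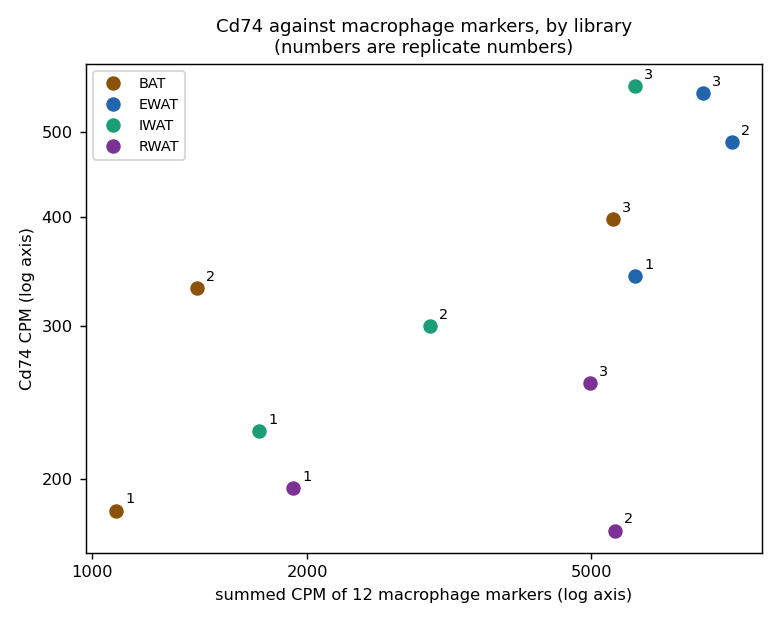
Cd74 in TMM-scaled CPM (log axis) against the summed CPM of 12 macrophage markers (log axis), 1 point per library with its replicate number, coloured by depot. RWAT replicate 2 has 5398 CPM of macrophage markers but the lowest Cd74, 175 CPM, while BAT replicate 2 has 1400 CPM of markers and 331 CPM of Cd74.

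Library by library, the order of the macrophage markers was not the order of Cd74. RWAT replicate 2 held 5398 CPM of macrophage markers, more than BAT replicate 3 (5361 CPM), yet 175 CPM of Cd74 against 397 CPM in that BAT library. BAT replicate 2, with 1400 CPM of macrophage markers, had 331 CPM of Cd74. IWAT replicate 3, the library highest in Cd74, had the highest dendritic cell marker sum of all 12 (262 CPM). Most of that sum came from the markers Clec10a (155 CPM) and Itgax (58.7 CPM), so it speaks mainly of these genes. Of the same list, Flt3 was at its highest there (6.68 CPM). Zbtb46 was near its lowest, at 14.5 CPM in a range of 14.3 to 20.5 CPM over the 12 libraries. The same library held 5754 CPM of macrophage markers, close to EWAT replicate 1 (5757 CPM), which had 342 CPM of Cd74. BAT replicate 3 followed in the dendritic cell sum (191 CPM), and the 3 RWAT libraries held 129.8 to 133 CPM.

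Across the 12 libraries, which fall into 4 depots and share their scaling, the members followed each other. The correlation of each member's log2 CPM with the mean of the 9 others was 0.910 to 0.965 for H2-Aa, H2-Ab1, H2-Eb1, Cd74, Ciita, H2-DMa and H2-DMb1, 0.825 for H2-Oa, 0.684 for H2-DMb2 and 0.632 for H2-Ob (Pearson's r, 12 libraries, a description). Among 9783 other genes with a mean log2 CPM of at least 3, the 10 most like the members' mean were Kdm3b (r = 0.951), Slc29a3 (0.942), Slc8b1 (0.937), Cxcl12 (0.936), Slamf7 (0.925), Il6ra (0.925), Arhgap39 (0.920), P2rx4 (0.918), Notch2 (0.909) and Map3k1 (0.904). Kdm3b, a histone demethylase, varied only 1.48-fold over the libraries, and Slamf7, a surface receptor of immune cells, 25.4-fold. Of the lists, the highest values outside that level limit were those of Cd83 (0.944), Cd3d (0.917), a T cell receptor subunit, and Flt3 (0.912). Cd3d had only 4.2 to 31.25 counts per library. The median r was 0.794 for the 3 turnover genes (from -0.12 to 0.944), 0.765 for the 12 macrophage markers and 0.722 for the 9 processing genes. It was 0.669 for the 5 costimulation and checkpoint ligands and 0.646 for the 10 T cell markers, which ran from -0.24 to 0.917. It was 0.632 for the 10 dendritic cell markers, which ran from -0.64 (Cd209a) and -0.62 (Zbtb46) to 0.912 (Flt3). For the 11 B cell markers tested it was 0.459. For the 13 class I genes it was 0.365 and for the 8 adipocyte markers -0.47.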

How the data were processed

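RNA of 12 libraries was measured. Per the labels' protocols, ribosomal RNA was removed from total RNA before single-end sequencing. The tools used by the authors, per the submitters' processing notes, include Trimmomatic 0.36, RSEM 1.3.0 and DESeq2 1.10.1, on GRCm38.p4. Neither annotation nor strand setting is given in the sources used here. RSEM expected counts per gene, not normalised, were deposited. The TPM, also computed by the authors, served for levels between genes and for ratios only. Per the file headers, the tables also hold a posterior mean and SD of each count.

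Expected counts were rounded, filtered with filterByExpr and scaled by TMM. Depots were compared with the quasi-likelihood test of edgeR 4.0.16 (in R 4.3.3), 1 fit for the 12 libraries, with Benjamini-Hochberg adjustment over 19154 genes and a threshold of 0.05; limma 3.58.1 and DESeq2 1.42.0 were alternatives. The biological coefficient of variation was 0.448. No libraries held the same counts within sampling noise. Libraries held 15699912 to 25633413 counts. Where a gene has 0 counts, up to 3 are allowed, by counting error only.

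The members and lists were chosen with earlier results of these data known. All 10 members are named, with, from each pathway list, called genes with the 2 largest changes each way, or the gene of highest mean log2 CPM where none was called (for the 8 lists, H2-Eb2, Creb1, Jak1, Ctsb, March8, Cd274, Lag3 and H2-D1), and the 10 genes most like the members. Other genes were named after their values were seen.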

Additional observations from a re-analysis of the deposited data

How the results depend on the processing

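Of 800 results of members under 20 alternatives, 1 passed its threshold, H2-Aa in EWAT against RWAT with DESeq2. Fold changes of members changed sign 19 times of 200 for BAT against white, 36 of 200 for IWAT and 0 of 200 for EWAT against RWAT. The cause of the changes below was not tested. Genes called across the depots numbered 98, and 2151 with DESeq2, 23 with limma-voom, 436 without the low-count filter and 11 to 1054 with 1 library left out (without EWAT replicate 2 and without EWAT replicate 1). For BAT against white, 19 genes became 950 with DESeq2, 3 with limma-voom, 11 with library sizes alone, 47 without the filter and 1 to 263 with 1 library left out (without IWAT replicate 1 and without RWAT replicate 1). For IWAT, 27 became 364 with DESeq2, 16 with limma-voom and 6 to 139 with 1 library left out (without IWAT replicate 1 and without RWAT replicate 1). For EWAT against RWAT, 8 became 546 with DESeq2, 1 of them a member, and 0 to 804 with 1 library left out (without EWAT replicate 2 and without EWAT replicate 1). Signs turned as follows, in log2 fold change. For BAT, limma-voom gave H2-Ab1 -0.039, and library sizes alone gave H2-Ab1 -0.35, H2-Eb1 -0.31, March8 -0.37 and H2-D1 -0.19. For IWAT, H2-DMb2 stood at 0.016 with DESeq2, 0.025 with limma-voom, 0.020 without the filter, 0.015 with RLE and 0.00745 with posterior mean counts. There, Ciita, H2-DMa and H2-DMb1 stood at -0.070, -0.066 and -0.0704 with limma-voom and at -0.072, -0.16 and -0.11 with library sizes alone, which also gave H2-Ab1 -0.033, Creb1 -0.17, Jak1 -0.095 and March8 -0.062. In EWAT against RWAT, March8 stood at 0.0064 with DESeq2, 0.0074 with RLE and 0.073 with library sizes alone, and Jak1 at -0.0086 without the filter.

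With 1 library left out, BAT against white ran from -0.31 to 0.15 for H2-Aa, -0.20 to 0.29 for H2-Ab1, -0.11 to 0.32 for H2-Eb1, -0.27 to 0.16 for Cd74 and -5.83 to 0.44 for H2-Eb2. IWAT ran from -0.20 to 0.41 for H2-Aa, -0.28 to 0.38 for H2-Ab1, -0.20 to 0.41 for H2-Eb1, -0.23 to 0.48 for Cd74, -0.55 to 0.40 for Ciita, -0.43 to 0.30 for H2-DMa, -0.53 to 0.31 for H2-DMb1, -0.11 to 0.14 for H2-DMb2, -0.20 to 0.67 for H2-Ob and -0.00059 to 0.13 for Creb1. EWAT against RWAT ran from -0.11 to 0.058 for Jak1, -0.054 to 0.043 for March8 and -0.67 to 0.52 for Lag3. Members with all EWAT libraries above all RWAT libraries numbered 9 or 10 in CPM under each scaling and removal tried, and 7 in TPM. Of all genes tested, 8.18% to 8.99% showed this arrangement under the scalings in CPM, and 5.1% in TPM. With 1 library left out, which leaves fewer values to overlap, 10.4% to 16.2% of all genes showed it. The count of 10 members came without EWAT replicate 1 (15.7% of genes) and without RWAT replicate 2 (14.5%).

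The libraries share replicate numbers across depots, and the labels do not say whether a number marks a shared animal or day. Of 18 same-numbered pairs, 10 had deviations correlated above 0.1 (r from -0.35 to 0.68). In 8 of these 18, the library of the first depot (in the order BAT, EWAT, IWAT, RWAT) correlated best with its own number in the second. The numbers were hence not taken as a pairing. The mean of the members' standardised log2 CPM nevertheless rose from replicate 1 to 3 in each depot. It stood at -1.60, -0.15 and 0.52 in BAT and at 0.49, 0.98 and 1.31 in EWAT. In IWAT the values were -0.32, -0.22 and 1.06, and in RWAT -1.10, -0.75 and -0.21. The cause of this order was not tested. With the replicate block, 171 genes were called across the depots, 649 for BAT against white, 19 for IWAT and 12 for EWAT against RWAT, none of them a member. With that block H2-Ab1 stood at -0.026 in BAT, Ciita, H2-DMa and H2-DMb1 at -0.062, -0.058 and -0.061 in IWAT, and Lag3 was called in BAT (1.56, edgeR adjusted p = 0.0459). H2-Oa and H2-Eb2, with at most 32 and 20 counts in a library, are limited by depth.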
